A study of Mus musculus with 12 samples.

Results

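The goblet cell secreted products are 10 genes whose RNA is typical of goblet cells: Muc2, Fcgbp, Zg16, Clca1, Tff3, Agr2, Spink4, Ccl6, Ccl9 and Klk1. They were found by name among the 55421 genes of a table of TPM values, a unit of abundance that corrects each gene for its transcript length and sets every library to the same total. All 10 passed the filter on low values and were among the 14510 genes tested. The samples were epithelial cells of mouse jejunum, in 4 groups of 3 libraries: Ctrl at day 1, Ctrl at day 3, Fzd5KO at day 1 and Fzd5KO at day 3. Fzd5KO is labelled as a knockout of Fzd5, which encodes Frizzled 5, a receptor for Wnt ligands. Not given in the sources used here are the event from which the days were counted, the promoter or Cre behind the knockout, the part of Fzd5 removed, and the strain, age and sex of the mice. Nothing there ties the replicates to separate animals, so a p-value below reflects only how these libraries vary, and that variation may be technical.

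Goblet cells are the mucus-making secretory cells of the gut epithelium, set apart from absorptive enterocytes by Notch signalling and by transcription factors such as Atoh1 and Spdef. They pack the gel-forming mucin Muc2 with other proteins into granules, and the released mucus holds bacteria off the epithelium. Wnt signals keep up the crypt stem cells from which goblet cells, enterocytes and the other epithelial cells arise.

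Fzd5 RNA, read first as a check of the labels, was lower in Fzd5KO but not lost. It lay at 43.5, 49.4 and 46.8 TPM in Ctrl day 1 and at 31.9, 33.1 and 33.1 TPM in Fzd5KO day 1. On day 3 it lay at 68.2, 65.9 and 60.5 TPM in Ctrl and at 39.7, 37.8 and 38.3 TPM in Fzd5KO. The groups did not overlap on either day, and Fzd5KO held 70.2% of the Ctrl mean on day 1 and 59.5% on day 3 (adjusted p = 0.000151 and 4.42e-07, limma with Benjamini-Hochberg adjustment over all tested genes). Since the removed part is not given, the remaining reads do not say how much working receptor was left.

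Depth was unknown, as TPM keeps none, and 21506 to 24467 genes lay above 0 in a library. Ctrl day 1 replicate 1 had the most such genes and lay away from its group on the fourth principal component (score 19.0, against −21.7 and −19.5 for replicates 2 and 3). Of 10 markers of epithelial cells all passed the filter. Their summed level lay between 5435 and 5783 TPM in the libraries of Ctrl day 1, Ctrl day 3 and Fzd5KO day 1. In Fzd5KO day 3 it lay between 7931 and 8105 TPM, but the markers split. By the same test 7 were higher than in Ctrl on day 3 and 3 lower, against 24.3% and 38.5% of all tested genes. Krt20 (1.28) and Vil1 (1.09) were among those higher on the log2 scale. Those lower were Cdx1 (−0.71), Krt18 (−0.46) and Cdx2 (−0.14), the last not under median-of-ratios scaling. Across all tested genes the median genotype difference was −0.14 on the log2 scale on both days. It lay between −0.05 and −0.0004 on day 1 under 3 other scalings of the libraries, and between −0.24 and −0.02 on day 3.

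The members sit at several places in the genome. In mm10 (GRCm38) coordinates, 4 lie on chromosome 7: Muc2 (141690340 to 141754693), Fcgbp (28071236 to 28120862), Zg16 (127050156 to 127087328) and Klk1 (44225360 to 44229618). Clca1 lies on chromosome 3 (145003817 to 145032776), Spink4 on chromosome 4 (40920052 to 40931395), Agr2 on chromosome 12 (35992907 to 36004087) and Tff3 on chromosome 17 (31125306 to 31129646). The chemokine genes Ccl9 (83572919 to 83578636) and Ccl6 (83587882 to 83593087) are neighbours on the minus strand of chromosome 11, 9245 bases apart.

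The 250 bases before the start of transcription are shown for Muc2 with Fcgbp and for Ccl6 with Ccl9, pairs chosen after their values were seen. Muc2 and Fcgbp encode abundant mucus proteins that fell by 0.78 and 0.91 on the log2 scale on day 1 and by 0.27 and 0.86 on day 3, and Ccl6 and Ccl9 are neighbouring genes that fell by 1.26 and 0.72 on day 3. The sequences are from RefSeq (GRCm38.p6), which covered 6 of the 10 members (Muc2, Fcgbp, Agr2, Ccl6, Ccl9 and Klk1), and run 5′ to 3′ on the strand of the gene. Capitals mark matches on either strand to 5 motifs: CAGCTG, an E-box form that Atoh1 reads, CCACCC, read by the KLF family, TGTTTNC, read by forkhead factors, TGACGTG, the core of an unfolded protein response element, and the ER stress element.
Muc2, chr7:141690090-141690339, plus strand: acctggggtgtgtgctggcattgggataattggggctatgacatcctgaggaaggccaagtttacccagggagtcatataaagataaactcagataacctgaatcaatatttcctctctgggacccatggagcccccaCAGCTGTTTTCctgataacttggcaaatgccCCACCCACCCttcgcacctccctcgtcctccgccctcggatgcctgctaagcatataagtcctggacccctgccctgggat
Fcgbp, chr7:28070986-28071235, plus strand: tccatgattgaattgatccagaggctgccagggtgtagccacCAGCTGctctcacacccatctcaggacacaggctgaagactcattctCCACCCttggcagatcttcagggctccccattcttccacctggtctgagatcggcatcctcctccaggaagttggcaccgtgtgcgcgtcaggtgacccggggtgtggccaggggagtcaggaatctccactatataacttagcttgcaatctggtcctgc
Ccl6, chr11:83593088-83593337, minus strand: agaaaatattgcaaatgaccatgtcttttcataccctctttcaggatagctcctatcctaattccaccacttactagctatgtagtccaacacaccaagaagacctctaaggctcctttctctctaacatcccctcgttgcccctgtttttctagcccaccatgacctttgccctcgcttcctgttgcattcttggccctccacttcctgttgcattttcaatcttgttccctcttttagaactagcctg
Ccl9, chr11:83578637-83578886, minus strand: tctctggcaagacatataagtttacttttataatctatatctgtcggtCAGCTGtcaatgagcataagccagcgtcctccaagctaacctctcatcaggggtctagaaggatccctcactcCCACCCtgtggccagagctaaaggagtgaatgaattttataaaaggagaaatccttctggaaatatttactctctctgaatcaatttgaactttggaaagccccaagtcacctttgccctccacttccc

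The motif CAGCTG was present in the windows of Muc2, Fcgbp and Ccl9, 3 of the 6 members, against 13.0% of 32851 windows of the same length before RefSeq gene starts. CCACCC was present in 5 of the 6 members, all but Ccl6, against 28.1% of all windows. TGTTTNC matched in Muc2 and Agr2, against 17.8% of all windows. In Muc2 its match shares letters with CAGCTG, and the 2 CCACCC matches there share letters with each other. TGACGTG and the ER stress element matched in 0 of the 6 members, against 1.65% and 0.113% of all windows. Matches this short describe the letters of the window and no binding was measured.

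As a group the goblet cell products took 1.04% of all TPM in Ctrl day 1 and 1.03% in Ctrl day 3, against 0.634% and 0.623% in Fzd5KO. Their summed level was 10368 ± 499 TPM (SD, n = 3) in Ctrl day 1 and 6338 ± 112 TPM in Fzd5KO day 1, which is 61.1% of Ctrl. On day 3 Ctrl held 10262 ± 326 TPM and Fzd5KO held 6228 ± 248 TPM, which is 60.7% of Ctrl. The lowest Ctrl library held 9794 TPM and the highest Fzd5KO library 6509 TPM, so the genotypes did not overlap. In bulk RNA, fewer goblet cells and less of these RNAs in each cell cannot be told apart. The sum is led by Muc2, Zg16, Fcgbp and Spink4, whose order differed between the groups. Muc2 was above Zg16 in Ctrl day 1 (means of 2569 and 2351 TPM) and below it in Ctrl day 3 (1990.5 and 2197 TPM), and Spink4 was above Fcgbp in Fzd5KO day 1 alone (1129 and 1041 TPM), with no overlap of libraries in any of these 3 pairs.

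On day 1 all 10 members were called lower in Fzd5KO, where a call is an adjusted p under 0.05, against 22.8% of all tested genes called lower. None was called higher, against 2.13% of all tested genes. Of all genes called, 8.53% were higher, but 48.1% after quantile normalization, 56.9% under median-of-ratios scaling and 37.2% in rescaled TPM. Under these 3 scalings 7, 7 and 8 members were called lower and 0 higher. Without Ctrl replicate 1 or 2 or Fzd5KO replicate 2 or 3 of day 1, 9 were called lower. For other settings, here and below, the share of all tested genes called lower or higher is not given. Counts under those settings therefore cannot be set against all genes. In all 10 members every Fzd5KO library lay below every Ctrl library, which was so for 38.9% of tested genes. The median change of the members was −0.66 on the log2(TPM + 1) scale, on which all changes below are given with their SE.

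On day 3 all 10 were again called lower, against 38.5% of tested genes, and 0 were called higher, against 24.3%. Of all genes called, 38.7% were higher, and 31.5 to 51.4% under the other scalings. The libraries of the genotypes again did not overlap in any of the 10, which was so in the same direction for 40.8% of tested genes. The median change of the members was −0.79. The median change over all tested genes was −0.14.

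**Figure D1:**
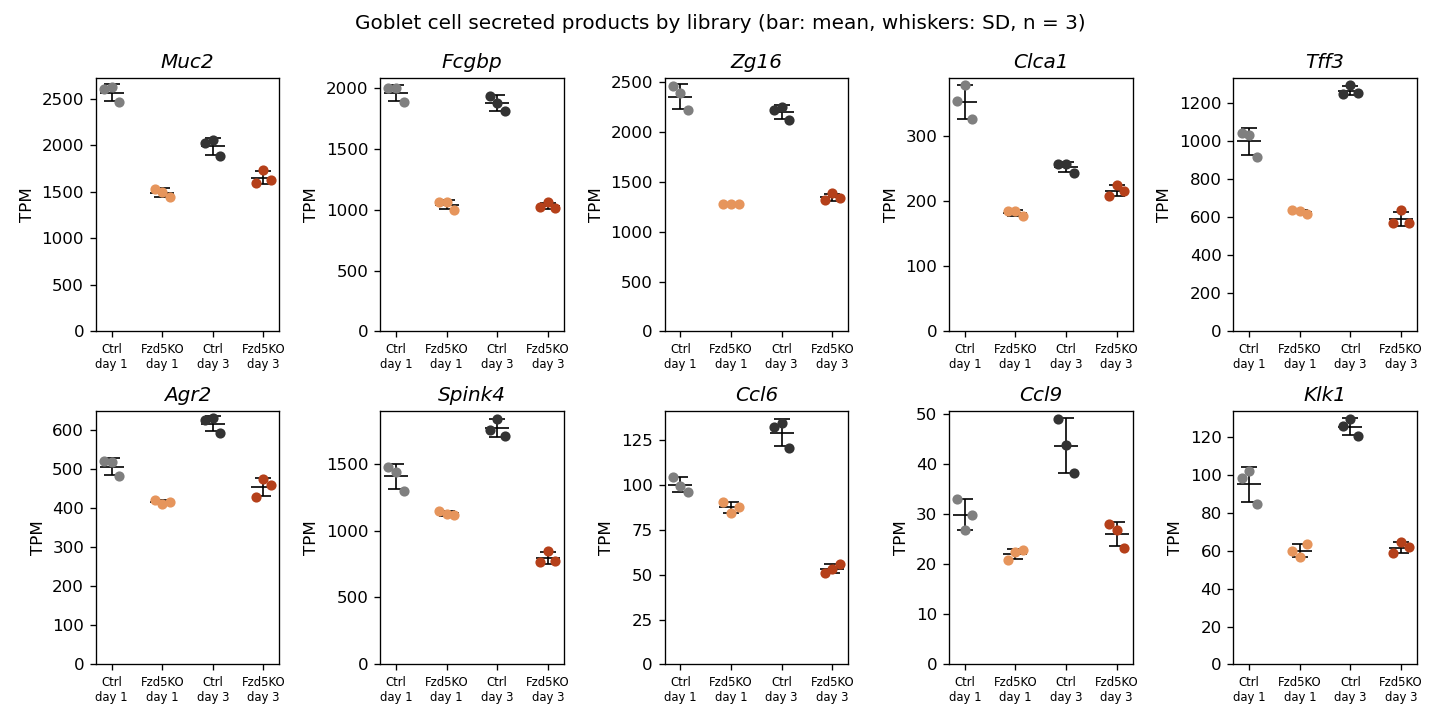
Level of each member in TPM (y axes, each from 0) in the 4 groups (x axes), with points for single libraries, bars for the mean of 3 and whiskers for the SD. Every Fzd5KO library lies below every Ctrl library of the same day, and Spink4 and Ccl6 have their lowest level in Fzd5KO day 3 while Muc2 and Clca1 have theirs in Fzd5KO day 1.

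Muc2 encodes the gel-forming mucin that makes up the frame of intestinal mucus. It lay at 2612, 2630.3 and 2463 TPM in Ctrl day 1 and at 1532, 1502 and 1443 TPM in Fzd5KO day 1. It lay at 2027, 2057 and 1887 TPM in Ctrl day 3 and at 1601, 1734 and 1626 TPM in Fzd5KO day 3. In the deposited TPM the controls were lower on day 3 than on day 1 and the knockout libraries higher, with no overlap in either case, and neither difference held after quantile normalization. Fzd5KO held 58.1% of Ctrl on day 1 (−0.78 ± 0.05, adjusted p = 1.21e-06) and 83.1% on day 3 (−0.27 ± 0.05, adjusted p = 0.000314). The difference between the 2 days' effects was 0.52 ± 0.06 (adjusted p = 5.30e-05), but 0.08 (adjusted p = 0.461) after quantile normalization.

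Clca1 encodes a secreted protease that acts on the mucus gel, and its pattern was the one nearest to Muc2 among the members. It lay at 353, 378 and 326 TPM in Ctrl day 1 and at 184, 185 and 177 TPM in Fzd5KO day 1. It lay at 257, 257 and 243 TPM in Ctrl day 3 and at 208, 224 and 216 TPM in Fzd5KO day 3. Fzd5KO thus stood far below Ctrl on day 1 and close below it on day 3. The change was −0.95 ± 0.05 on day 1 (adjusted p = 7.86e-07) and −0.22 ± 0.05 on day 3 (adjusted p = 0.00277), and the days' effects differed by 0.72 ± 0.07 (adjusted p = 9.85e-06). The day 3 call was lost under median-of-ratios scaling (−0.08, adjusted p = 0.0818).

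Fcgbp and Zg16 were far below Ctrl on both days. Fcgbp, the Fc-gamma binding protein, is a large mucus protein bound up with Muc2. Its libraries lay at 1881 to 1999 TPM in Ctrl day 1, 1811 to 1938 TPM in Ctrl day 3, 997 to 1065 TPM in Fzd5KO day 1 and 1014 to 1061 TPM in Fzd5KO day 3. The days overlapped within each genotype, while the genotypes did not overlap. Fcgbp fell by 0.91 ± 0.04 on day 1 (adjusted p = 1.08e-07) and by 0.86 ± 0.04 on day 3 (adjusted p = 7.54e-09). The difference between these effects was 0.05, with a 95% interval from −0.07 to 0.17 (adjusted p = 0.492), but −0.31 after quantile normalization and −0.15 in rescaled TPM (adjusted p = 0.00368 and 0.0163).

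Zg16, a lectin-like granule protein that binds the cell wall of Gram-positive bacteria, lay at 2214 to 2454 TPM in Ctrl day 1 and at 1272 to 1282 TPM in Fzd5KO day 1. On day 3 it lay at 2119 to 2251 TPM in Ctrl and at 1314 to 1384 TPM in Fzd5KO. The Ctrl days overlapped and the genotypes did not. Zg16 fell to 54.3% of Ctrl on day 1 (−0.88 ± 0.04, adjusted p = 1.75e-07) and to 61.2% on day 3 (−0.71 ± 0.04, adjusted p = 4.61e-08). The difference of 0.17 ± 0.06 between the days was near the threshold (adjusted p = 0.0316) and turned to −0.25 under quantile normalization and −0.04 in rescaled TPM. Leaving out any 1 replicate of Fzd5KO day 1, replicate 1 or 2 of Ctrl day 1, replicate 3 of Ctrl day 3, or replicate 2 or 3 of Fzd5KO day 3 ended its call (adjusted p = 0.0517 to 0.0740), as did fitting with no filter (0.0939) or no trend (0.0770).

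Agr2, a protein disulfide isomerase of the endoplasmic reticulum that Muc2 needs for its folding, fell by less than the mucus proteins on day 1. It lay at 521, 519 and 483 TPM in Ctrl day 1 and at 422, 411 and 417 TPM in Fzd5KO day 1. It lay at 627, 631 and 595 TPM in Ctrl day 3 and at 429.5, 476 and 459.8 TPM in Fzd5KO day 3. Ctrl was higher on day 3 than on day 1 without overlap. Agr2 fell to 82.1% of Ctrl on day 1 (−0.28 ± 0.04, adjusted p = 0.00131) and to 73.7% on day 3 (−0.44 ± 0.04, adjusted p = 4.94e-06). The difference between the days was −0.16 with a 95% interval from −0.29 to −0.02 (adjusted p = 0.0606), and it was called under each of the 3 other scalings and without Ctrl day 3 replicate 3 or Fzd5KO day 3 replicate 2.

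Tff3, the trefoil peptide that goblet cells release to aid repair of the epithelial surface, lay at 1045, 1035 and 919 TPM in Ctrl day 1 and at 638, 631 and 620.0 TPM in Fzd5KO day 1. It lay at 1251, 1294 and 1254 TPM in Ctrl day 3 and at 569, 637 and 568 TPM in Fzd5KO day 3. The knockout days overlapped, while Ctrl was higher on day 3. Tff3 fell to 63.0% of Ctrl on day 1 (−0.66 ± 0.05, adjusted p = 1.90e-05) and to 46.7% on day 3 (−1.10 ± 0.05, adjusted p = 1.45e-08). The fall was larger on day 3 by 0.44 (−0.44 ± 0.08, adjusted p = 0.000759).

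Spink4 belongs to the Kazal family of serine protease inhibitors. It lay at 1475, 1439 and 1296 TPM in Ctrl day 1 and at 1147, 1121 and 1117 TPM in Fzd5KO day 1. It lay at 1751, 1835 and 1705 TPM in Ctrl day 3 and at 763, 848 and 769.8 TPM in Fzd5KO day 3. The genotypes moved apart with time, Ctrl upwards and Fzd5KO downwards. Spink4 fell to 80.4% of Ctrl on day 1 (−0.31 ± 0.05, adjusted p = 0.00244) and to 45.0% on day 3 (−1.15 ± 0.05, adjusted p = 9.04e-09), a difference of −0.84 ± 0.08 between the days (adjusted p = 4.37e-06). The day 1 call was lost under quantile normalization (adjusted p = 0.104) and median-of-ratios scaling (adjusted p = 0.0553).

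Ccl6, a CC chemokine that draws in myeloid cells, showed the same divergence and the lowest share of Ctrl on day 3 among the members. It lay at 105, 99.7 and 96.3 TPM in Ctrl day 1 and at 90.5, 84.5 and 87.7 TPM in Fzd5KO day 1. It lay at 132, 135 and 121 TPM in Ctrl day 3 and at 51.0, 53.0 and 56.1 TPM in Fzd5KO day 3. The knockout libraries were just below Ctrl on day 1 and far below on day 3. The change was −0.19 ± 0.05 on day 1 (adjusted p = 0.0229) and −1.26 ± 0.05 on day 3 (adjusted p = 3.50e-09), and the effects differed by −1.07 ± 0.07 (adjusted p = 5.07e-07). The day 1 call of Ccl6 did not hold under the 3 other scalings (adjusted p = 0.230 to 0.676) or without Ctrl replicate 1 or 2 or Fzd5KO replicate 2 or 3 of that day (adjusted p = 0.0569 to 0.0804).

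Ccl9, the neighbouring chemokine gene, was the lowest member. It lay at 33.0, 26.9 and 29.9 TPM in Ctrl day 1 and at 20.9, 22.5 and 22.9 TPM in Fzd5KO day 1. It lay at 49.1, 43.8 and 38.3 TPM in Ctrl day 3 and at 28.0, 26.9 and 23.3 TPM in Fzd5KO day 3. The genotypes were apart on each day, though Fzd5KO day 3 overlapped Ctrl day 1. Ccl9 fell by 0.42 ± 0.10 on day 1 (adjusted p = 0.0124) and by 0.72 ± 0.10 on day 3 (adjusted p = 6.84e-05). The difference of −0.30 between the days had a 95% interval from −0.61 to 0.01 (adjusted p = 0.106), and was called under quantile normalization, in rescaled TPM and without Ctrl day 3 replicate 3 (adjusted p = 0.0156 to 0.0345). The day 1 call was lost under the 3 other scalings (adjusted p = 0.0739 to 0.0998).

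Ccl6 and Ccl9 are also made by macrophages and other myeloid cells. Of 12 myeloid markers, 10 were tested. On day 3 8 rose and 0 fell, against 24.3% and 38.5% of all tested genes. On day 1 0 rose and 1 fell (0 without replicate 2 of either day 1 group), against 2.13% and 22.8%. The 12 markers summed to 22.3 to 25.5 TPM in Ctrl day 1 and 21.1 to 22.8 TPM in Fzd5KO day 1. On day 3 they summed to 18.4 to 19.7 TPM in Ctrl and 38.9 to 48.5 TPM in Fzd5KO. Among them Lyz2, the macrophage lysozyme, rose from 3.07 to 8.06 TPM on day 3 (1.15 ± 0.12, adjusted p = 5.40e-06) and Csf1r, the receptor for colony-stimulating factor 1, rose from 0.72 to 3.81 TPM (1.53 ± 0.19, adjusted p = 3.11e-05). The myeloid markers thus moved opposite to both chemokines on day 3, and their part in the chemokine values was not tested.

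Klk1 encodes tissue kallikrein, a secreted serine protease. It lay at 98.2, 102 and 84.5 TPM in Ctrl day 1 and at 59.8, 56.5 and 63.4 TPM in Fzd5KO day 1. It lay at 126, 129.6 and 121 TPM in Ctrl day 3 and at 58.6, 64.6 and 61.7 TPM in Fzd5KO day 3. The knockout days overlapped, while Ctrl was higher on day 3. Klk1 fell to 63.1% of Ctrl on day 1 (−0.65 ± 0.07, adjusted p = 0.000119) and to 49.2% on day 3 (−1.01 ± 0.07, adjusted p = 2.14e-07), a difference of −0.36 ± 0.10 (adjusted p = 0.0115). Klk1 has many close copies in mouse, the Klk1b genes, among which reads may be split. Of 15 related genes looked up (Klk1b genes, Klk15 and Klk6) 0 reached the filter. Of 8 genes of pancreatic acinar cells, which also make kallikrein, 0 did so.

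**Figure D2:**
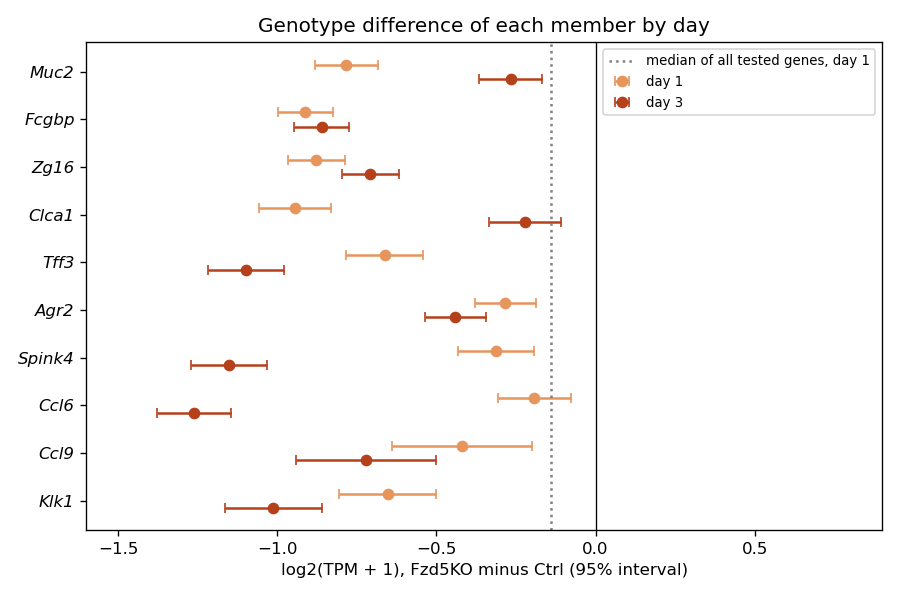
Change of each member in Fzd5KO against Ctrl (x axis, log2(TPM + 1)) on day 1 and day 3, as points with 95% intervals, with the median of all tested genes on day 1 as a dotted line. Muc2 and Clca1 are nearer to 0 on day 3 than on day 1, Fcgbp is nearly unmoved, and Tff3, Spink4, Ccl6 and Klk1 are farther from 0 on day 3.

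By the test in the deposited TPM, the knockout effect differed between the days in 7 of the 10 members. It was smaller on day 3 for Muc2, Clca1 and Zg16, 3 called in the positive direction against 25.3% of tested genes. The count of 3 was 2 wherever the call of Zg16 alone was lost, which was so in 8 of the 12 fits that leave out a library and with no filter or no trend. It was larger on day 3 for Tff3, Spink4, Ccl6 and Klk1, 4 called in the negative direction against 19.1% of tested genes. Counts of 3 and 4 among 10 genes are too small to set the members apart from these shares. With rescaled TPM, 7 members were called in the negative direction, and with quantile normalization 8 were, with Clca1 the only member still called in the positive direction. Of all genes called, 57.0% were in the positive direction in the deposited TPM and 36.6 to 55.1% under the other scalings.

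A test of each member against Muc2 in the same library, asked whether the other 9 changed by the same amount. A single scaling factor for a library cancels in this ratio, apart from the added 1. On day 1, 5 of the other 9 members fell by less than Muc2: Ccl6 (0.59), Agr2 (0.50), Spink4 (0.47), Ccl9 (0.36) and Tff3 (0.12). Fcgbp (−0.13), Zg16 (−0.10) and Clca1 (−0.16) fell by more. The call of Zg16 was lost without Ctrl day 1 replicate 1, without Fzd5KO day 1 replicate 1 and with no trend (adjusted p = 0.0504, 0.0507 and 0.0557). After quantile normalization the calls of Zg16, Tff3 and Ccl9 were lost (adjusted p = 0.0692, 0.943 and 0.0998). On this ratio 90.6% of all tested genes were called in one direction or the other, beside a change of Muc2 of −0.78 and a median of all genes of −0.14. The 8 calls among 9 members are near that share and do not set the members apart. Klk1 was not called (0.13, adjusted p = 0.0548), but was without replicate 2 of Ctrl day 1 or of Fzd5KO day 1 (adjusted p = 0.0302 and 0.0209).

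On day 3, 8 of the 9 fell by more than Muc2, from −0.17 for Agr2 to −0.88 for Spink4 and −0.99 for Ccl6. Of all genes 57.9% were called in either direction, and the share called lower alone is not given here. The call of Agr2 was lost after quantile normalization (−0.002, adjusted p = 0.986), which left 7. The exception was Clca1, at 0.05 with a 95% interval from −0.03 to 0.12 (adjusted p = 0.284). Both days' ratios rest on the same Muc2 values as the changes above.

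The makeup of the goblet products shifted accordingly. Muc2 made up 24.4 to 25.2% of the members' summed TPM in Ctrl day 1 and 23.2 to 23.8% in Fzd5KO day 1. It made up 19.1 to 19.6% in Ctrl day 3 and 26.5 to 26.6% in Fzd5KO day 3. Spink4 made up 13.2 to 13.8% in Ctrl day 1, 17.6 to 18.0% in Fzd5KO day 1, 16.9 to 17.5% in Ctrl day 3 and 12.6 to 13.0% in Fzd5KO day 3. Muc2 thus held its largest share of the group where Spink4 held its smallest. Fcgbp held a smaller share in the knockout on both days, 16.0 to 16.9% against 17.9 to 19.2% in Ctrl.

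**Figure D3:**
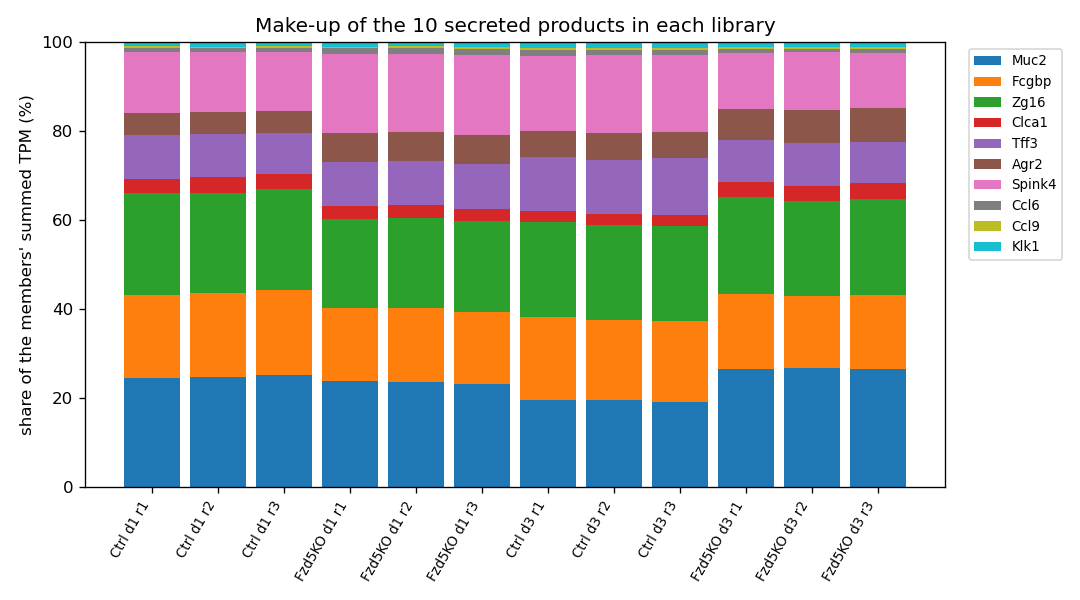
Share of each member in the summed TPM of the 10 members (y axis, percent) in each of the 12 libraries (x axis). The Muc2 part is largest in the Fzd5KO day 3 libraries and smallest in the Ctrl day 3 libraries.

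The controls also differed between the days. In Ctrl, Tff3, Agr2, Spink4, Ccl6, Ccl9 and Klk1 were called higher on day 3 than on day 1, by 0.28 (Agr2) to 0.53 (Ccl9), which is 6 members against 25.0% of tested genes called higher. Muc2 (−0.37 ± 0.05, adjusted p = 0.000109) and Clca1 (−0.48 ± 0.05, adjusted p = 3.94e-05) were called lower, 2 members against 11.0%. The fall of Muc2 was lost after quantile normalization (−0.05, adjusted p = 0.558). Fcgbp (−0.06) and Zg16 (−0.10) were not called in the deposited TPM, and their direction depended on the scaling. Both were called higher after quantile normalization (0.17 and 0.18, adjusted p = 0.0186 and 0.0248). Both were called lower under median-of-ratios scaling (−0.19 and −0.23, adjusted p = 0.000889 and 0.000410) and in rescaled TPM (−0.10 and −0.13, adjusted p = 0.0348 and 0.00702), and Zg16 also without Ctrl day 1 replicate 3 (adjusted p = 0.0143). Of all genes called, 69.4% were higher on day 3, and 41.0 to 62.2% under the other scalings. These are the same Ctrl libraries that the genotype comparisons use.

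Within Fzd5KO, Spink4 (−0.51 ± 0.05, adjusted p = 1.29e-05) and Ccl6 (−0.70 ± 0.05, adjusted p = 7.55e-07) were called lower on day 3 than on day 1, 2 members against 10.5% of tested genes. Muc2 (0.15, adjusted p = 0.0197), Clca1 (0.24, adjusted p = 0.00223) and Agr2 (0.13, adjusted p = 0.0355) were called higher, 3 members against 34.4%. Across all tested genes the median was 0.11 in both time comparisons, and these 3 rises were lost under all 3 other scalings. Of all genes called in Fzd5KO, 76.6% were higher on day 3, and 40.8 to 55.7% under the other scalings. Muc2 lay at −0.003 and −0.10 under median-of-ratios scaling and in rescaled TPM, Agr2 at −0.02 and −0.12, and Clca1 at −0.02 after quantile normalization. In rescaled TPM Muc2 and Agr2 were thus called lower on day 3 (adjusted p = 0.0496 and 0.0134). The falls of Spink4 and Ccl6 held under all 3. Fcgbp (−0.01) and Tff3 (−0.09), not called in the deposited TPM, were called lower on day 3 under all 3, by −0.25 to −0.13 and by −0.34 to −0.24.

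Most other goblet markers moved with the members. Counts below are of called genes, beside 22.8% of all tested genes called lower and 2.13% called higher on day 1. On day 3 these shares were 38.5% and 24.3%. Of 18 other goblet markers 17 were tested. On day 1 0 rose and 14 fell (median −0.51), and on day 3 3 rose and 13 fell (median −0.58). Rep15, a Rab-binding protein, fell from 10.8 to 6.01 TPM on day 1 (−0.75 ± 0.07) and from 16.2 to 5.86 TPM on day 3 (−1.33 ± 0.07). Hepacam2, a cell adhesion protein, went from 30.0 to 17.7 TPM on day 1 and from 39.3 to 15.3 TPM on day 3 (−0.73 ± 0.08 and −1.30 ± 0.08). S100a6, a calcium-binding protein also made by other cells, rose on day 3 (1.24 ± 0.06), as did Guca2a (0.45 ± 0.05) and Tspan13 (0.85 ± 0.05). The 4 changes of Rep15 and Hepacam2 were called (adjusted p from 1.66e-08 to 0.000132).

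Of 12 transcription factors of the goblet line, 0 rose and 7 fell on day 1 (median −0.28), but only 2 fell under each of the 3 other scalings. Without Ctrl day 1 replicate 3, or without Fzd5KO day 1 replicate 1, 4 fell. On day 3 1 rose and 8 fell (median −0.53), and 2 rose under median-of-ratios scaling or without Fzd5KO day 3 replicate 1. Foxa3, a forkhead factor, fell from 13.9 to 6.33 TPM on day 3 (−1.03 ± 0.12, adjusted p = 1.88e-05), and Foxa2, another, fell from 4.43 to 1.08 TPM (−1.38 ± 0.15, adjusted p = 1.21e-05). Klf4, which goblet cells need to mature but which other villus cells also express, was the riser, from 41.9 to 85.2 TPM (1.01 ± 0.04, adjusted p = 2.82e-09). Atoh1 and Spdef, named here for their place in the lineage, fell on both days, Atoh1 by 0.46 and 0.52 and Spdef by 0.40 and 0.55, and the day 1 fall of Spdef was lost under the 3 other scalings.

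Genes for making and dressing mucins did not share 1 direction. Of 19 genes of mucin glycosylation and sulfation 16 were tested. On day 1 0 rose and 8 fell (median −0.19), with 4 falling under each of the 3 other scalings and 5 without Ctrl day 1 replicate 1 or 2. On day 3 9 rose and 4 fell (median 0.21), against 24.3% and 38.5% of all tested genes. Galnt12, which adds the first sugar of O-glycans, fell on both days (−0.40 ± 0.07 and −0.77 ± 0.07). Slc26a2, a sulfate transporter, fell on day 1 (−0.43 ± 0.04) and rose on day 3 (0.67 ± 0.04).

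Of 16 genes of protein folding and transport in the secretory pathway, 0 rose and 8 fell on day 1 (median −0.14), with 2 to 4 falling and 1 to 4 rising under the other scalings. On day 3 7 rose and 3 fell (median 0.08), against 24.3% and 38.5% of all tested genes. Up to 6 fell on day 3 under the other scalings. P4hb, a protein disulfide isomerase of all secretory cells, rose from 1608 to 3514 TPM on day 3 (1.13 ± 0.03, adjusted p = 7.28e-11), against the fall of its relative Agr2.

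Relatives of the members in the same gene families split between the directions. Among 4 tested mucins of 13, the membrane-bound Muc3 rose on both days (0.21 ± 0.04 and 1.18 ± 0.04) and Muc13 rose on day 3 (0.59 ± 0.03), while Muc4 and Muc3a fell on both. The other gel-forming mucins Muc5ac, Muc5b and Muc6 were at 0 or close to it, with means of at most 0.02 TPM. Among 5 tested Clca genes of 7, Clca3b (−1.10 ± 0.05 and −1.62 ± 0.05) and Clca3a2 (−0.89 ± 0.11 and −1.17 ± 0.11) fell on both days. The fall of Clca3b was larger on day 3, that of Clca1 smaller. Clca4a rose on both days (0.38 ± 0.04 and 1.48 ± 0.04). Clca4b fell on day 1 (−0.23, a call lost under median-of-ratios scaling) and rose on day 3 (1.30). Clca3a1 fell on day 1 (−0.42) and was not called on day 3 (0.08). Clca genes are close copies, so reads may be split between them. Of 12 other CC chemokines 6 were tested, and on day 3 Ccl28, made by epithelial cells, fell (−1.39 ± 0.07) while Ccl5, Ccl25, Ccl4 and Ccl20 rose.

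Markers of the other cell types of these samples moved as well, and their part in the members' values was not tested. Of 12 enterocyte markers, 4 rose and 5 fell on day 1 (7 rose under median-of-ratios scaling, 3 fell under quantile normalization), and 11 rose and 0 fell on day 3, when Ctrl libraries summed to 20128 to 21258 TPM and Fzd5KO libraries to 44289.9 to 45821 TPM. Of 11 tested Paneth cell markers of 12, 1 rose and 6 fell on day 1 (3 rose and 0 fell under median-of-ratios scaling, 2 rose and 3 fell in rescaled TPM, 2 fell under quantile normalization, and 0 rose without Ctrl replicate 3 or Fzd5KO replicate 2 or 3), and 0 rose and 11 fell on day 3 (median −1.34), with sums of 14444 to 15408 TPM and 4822 to 5248 TPM. Of 10 enteroendocrine markers 0 rose and 3 fell on day 1, a count near the 22.8% of all tested genes called lower. On day 3 0 of them rose and 8 fell (median −1.08), against 38.5% of all tested genes called lower. All 6 crypt stem cell markers fell on both days (medians −0.97 and −2.02). On day 3 all 9 tested markers of T cells rose (median 1.27), as did all 6 of B and plasma cells (median 1.48). On day 1, 0 of these 9 T cell markers rose and 4 fell. In Ctrl all 9 fell from day 1 to day 3 (median −1.33), against 11.0% of all tested genes. In Fzd5KO 3 rose and 1 fell with time (median 0.09), against 34.4% and 10.5%. The 11 listed T cell markers summed to means of 178 TPM in Ctrl day 1 and 42.7 TPM in Ctrl day 3. Their mean sums were 119 TPM in Fzd5KO day 1 and 163 TPM in Fzd5KO day 3.

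**Figure D4:**
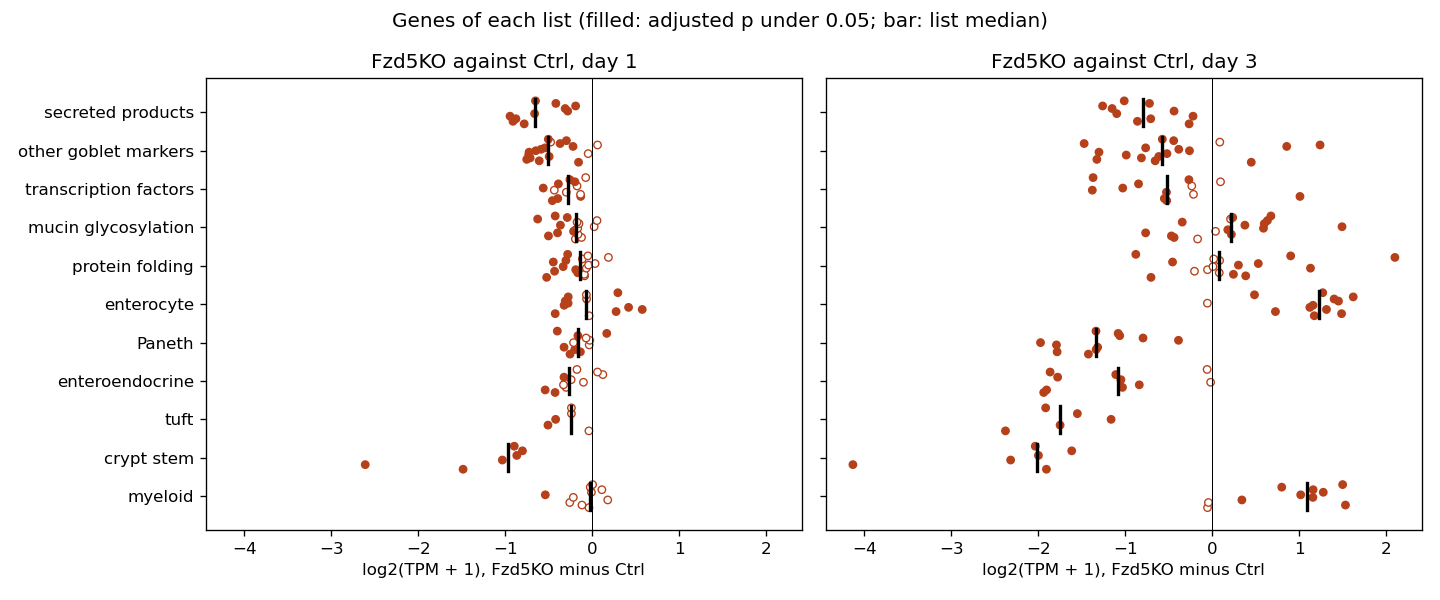
Change in Fzd5KO against Ctrl on day 1 (left) and day 3 (right) for each tested gene of the lists (points, filled where called; x axis, log2(TPM + 1)), with the median of a list as a bar. On day 3 the median of the goblet members is below 0, as are those of the Paneth, enteroendocrine, tuft and stem cell markers, and that of the enterocyte markers is above 0.

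The genes nearest to the members in pattern were sought among 8912 other tested genes with a mean of at least 5 TPM that are no predicted or small RNA genes. The measure was the mean absolute difference over the 12 libraries between log2 values, each centred on its own mean. Nearest to the mean of the 10 members were Ptms (0.0487), Nsd2 (0.0557), Prkdc (0.0557), Rab27b (0.0600) and Ern2 (0.0600). Ern2, an endoplasmic reticulum stress sensor of mucus-making cells, fell from 16.8 to 11.3 TPM on day 1 and from 18.5 to 10.9 TPM on day 3.

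For single members the nearest genes differed in kind. Those of Spink4 were Ccna2 (0.0356) and Tmpo, and those of Ccl6 were Tubb5 (0.0569) and Hist1h1a, of which Ccna2 (cyclin A2) and Hist1h1a are genes of dividing cells. Those of Agr2 were Hacd3 (0.0294) and Cd81, and those of Klk1 were Tpsg1 (0.0642), itself a goblet marker, and Cit. Among the members themselves, the nearest were Muc2 and Clca1 (0.0519), Fcgbp and Zg16 (0.0549), Tff3 and Klk1 (0.0647), and Spink4 and Ccl6 (0.0724). All these points share libraries and groups, so the measure describes these 12 libraries only. Of 7 markers of cycling cells, 5 fell on day 1 and 7 on day 3 (medians −0.28 and −1.04). Only 3 fell on day 1 under each of the 3 other scalings, and also without Ctrl day 1 replicate 2 or Fzd5KO day 1 replicate 1.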

How the data were processed

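RNA of jejunal epithelial cells was isolated with an RNeasy kit and sequenced from TruSeq Stranded Total RNA libraries, per the labels' protocols. The authors deposited 1 table of TPM values for 55421 genes in 12 libraries, with 0 columns of other samples. 23594 genes were at 0 in every library. Per the submitters' processing notes, the tools were RSEM, STAR 2.7.3a and bcl2fastq 2.18, with mm10 as the build. Not given in the sources used here are the annotation and the strand setting. TPM scales each library to 1 total, so abundant RNAs shift all other values, and neither depth nor counting error is known.

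The test was limma 3.58.1 (R 4.3.3) on log2(TPM + 1): 4 group means, 1 variance estimate shared by all 12 libraries (residual degrees of freedom: 8) with an intensity trend. The filter kept the 14510 genes that reached 1 TPM in 3 or more libraries, with Benjamini-Hochberg adjustment over all of them and calls under 0.05. A fold on this scale understates the change of low genes. For ratios to Muc2, its log2 value in each library was subtracted from every gene before the fit. The procedure was also run on simulated data with few changed genes and no shift of all genes. Such data cannot show how the calls depend on the scaling. Gene coordinates are from GENCODE mouse release M21 on GRCm38, the assembly of mm10, counted from 1. Plots were made in Python 3.11.15 (matplotlib 3.10.9).

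The members and gene lists were chosen with earlier results of these data known. All 10 members were described. The genes named from each list were called in a genotype comparison, but were not always those of smallest p. Ang4 (−1.47 on day 3) and Nkx2-2 (−1.37 on day 3) had smaller p than some genes named from their lists. Others named (Guca2a, Tspan13, Atoh1, Spdef, Clca3a1 and the unlisted mucins) were chosen after their values were seen, as were the printed promoters. St6galnac2 was left out because its symbol is shared by 2 genes, and Muc17 was not analysed here.

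Other settings tried were 3 scalings (quantile normalization, median of ratios, and TPM rescaled after dropping mitochondrial, predicted and small RNA genes plus the 20 most abundant), pseudocounts of 0.1 and 5, a filter at 5 TPM or none, no trend, a replicate block, fits of the compared groups alone, and leaving out each library.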

Additional observations from a re-analysis of the deposited data

Results flagged for a closer look

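The knockout effect differed between day 3 and day 1 by the interaction test in 7 members (limma with Benjamini-Hochberg adjustment, called under 0.05). Of these, 3 were called in the positive direction, against 25.3% of all tested genes, and 4 in the negative direction, against 19.1%. Counts this small do not set the members apart from these shares. The difference was 0.52 for Muc2, 0.72 for Clca1 and 0.17 for Zg16, whose falls were smaller on day 3. The call of Zg16 was lost without a filter, without the trend and in 8 of the 12 fits that leave out a library (adjusted p = 0.0517 to 0.0740), and its sign turned under quantile normalization and in rescaled TPM. The call of Muc2 was lost under quantile normalization. The difference was −0.44 for Tff3, −0.84 for Spink4, −1.07 for Ccl6 and −0.36 for Klk1, whose falls were larger on day 3. Groups of 3 libraries are too small for a test of single outlying libraries.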

How the results depend on the processing

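Each member result was recomputed under 10 other settings and with each of 12 libraries left out, and no member reversed in either genotype comparison. Members called lower on day 1 were 7, 7 and 8 under quantile, median-of-ratios and rescaled values. Of 220 values, 208 kept their direction and call on day 1 and 219 on day 3. In the difference between the days, 187 of 210 did so. In the time comparisons it was 212 of 220 in Ctrl and 182 of 220 in Fzd5KO, and in the ratios to Muc2 385 of 396. The cause of the changes was not tested. The difference between days reversed for Fcgbp (quantile −0.31, rescaled −0.15) and Zg16 (−0.25, −0.0360). Day 3 against day 1 in Ctrl reversed for Fcgbp (0.17) and Zg16 (0.18) under quantile normalization. In Fzd5KO, median-of-ratios scaling gave −0.0028 for Muc2, −0.0775 for Zg16, −0.0236 for Agr2 and −0.11 for Klk1. Quantile normalization gave −0.0652 for Zg16, −0.0164 for Clca1 and −0.26 for Klk1. Rescaled TPM gave −0.10 for Muc2, −0.17 for Zg16, −0.12 for Agr2, −0.0068 for Ccl9 and −0.20 for Klk1. Fcgbp lay between −0.0419 and 0.0055 with a library left out, and above 0 without Fzd5KO day 1 replicate 1 or 2 or Fzd5KO day 3 replicate 3. The Klk1 to Muc2 ratio on day 1 was −0.0203 after quantile normalization, and 5 of the 9 ratios were then called (7 on day 3). Members called lower in the difference between days were 8 (quantile) and 7 (rescaled), and 1 was called higher (quantile). In Ctrl, 4, 1 and 4 were called lower on day 3 with median-of-ratios, quantile and rescaled values. In Fzd5KO these counts were 4, 5 and 8, with 0 called higher in each, 1 without a filter and 1 to 3 with a library left out (1 without Fzd5KO day 1 replicate 3 or without Fzd5KO day 3 replicate 2). The day 1 sum was 68.3% of Ctrl (median-of-ratios) and 66.1% (rescaled), and 59.5% without Ctrl day 1 replicate 3. The day 3 sum was 66.9% and 56.8%. Same-numbered libraries of different groups did not deviate together (correlations from −0.07 to 0.09 in 18 pairs). No pairing by number was seen, but such correlations cannot show that the samples were unpaired. The replicate block changed the direction or call of 0 of 68 member results. Unknown depth limits all low values.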
